A study of Mus musculus with 12 samples.

Results

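The genes described here are 42 interferon-stimulated genes in donor T cells recovered from the liver of mice after allogeneic transplantation, in a study of graft-versus-host disease (GVHD). They were taken by name from a table of 25078 genes, and a gene was kept if at least 2 libraries held 10 or more counts. All 42 met this rule. They form a class of 32 genes, most of them known for strong induction by type I interferon (called type I-like here), and a class of 10 GTPases that are classic targets of interferon-gamma. The type I-like class also holds Irf1, Irf8 and the GTPase Ifi47, which interferon-gamma induces as well. All 42 were tested in CD4 T cells and 41 in CD8 T cells, where Ifi44 stayed below the filter.

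Bulk RNA-Seq was measured in 12 libraries of T cells sorted from the liver of WT BALB/c recipients on day 6 after hematopoietic cell transplantation (HCT). Recipients were irradiated and given T cell-depleted bone marrow from WT C57BL/6 donors together with C57BL/6 T cells of 1 of 3 genotypes. WT T cells were compared with STAT3ko T cells, in which CD4-Cre deletes floxed Stat3, and with STAT3ko PD-1ko T cells, which carry the same Stat3 deletion and lack Pdcd1 in the germ line. Each genotype has 2 libraries of CD4 and 2 of CD8 T cells, and each library combines cells of 3 recipients. CD4-Cre acts during thymic development, so the Stat3 deletion precedes transplantation, and no group of libraries has the PD-1ko without the STAT3ko, so no effect of PD-1 loss in STAT3-sufficient cells can be read from these groups. Libraries held 21676125 to 24551477 counts on genes. With 2 pools a group, p-values measure only the spread between pools.

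Interferons are secreted alarm signals of antiviral defense. Type I interferons act through IFNAR1 and IFNAR2, which activate the kinases JAK1 and TYK2. These lead to the assembly of a transcription factor complex that holds IRF9 and binds interferon-stimulated response elements (ISRE). Interferon-gamma, made largely by T and NK cells, acts through IFNGR1 and IFNGR2, and its early target genes carry gamma-activated sites (GAS). The induced genes overlap widely, so the classes used here are a convention and not proof of the inducing cytokine. STAT3 also responds to type I interferon and is known to restrain interferon-stimulated genes in several cell types.

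The targeted genes were read first. Stat3 was at 369 and 467 CPM (counts scaled to library size by TMM) in the WT CD4 libraries, at 140 and 164 in STAT3ko, and at 157 and 219 in STAT3ko PD-1ko. The CD8 libraries held 397 and 384, 149 and 136, and 154 and 235. The WT libraries stood above all others in both subsets, with a log2 fold change in STAT3ko of -1.46 ± 0.22 (SE) in CD4 and -1.46 ± 0.20 in CD8. In edgeR's quasi-likelihood test the adjusted p of this deletion was 0.055 in CD4 and 0.108 in CD8, so the threshold of 0.05 used below missed the deleted gene itself. Pdcd1, which encodes PD-1, was at 247 and 235 CPM in WT CD4, 261 and 323 in STAT3ko, and 55.1 and 26.0 in STAT3ko PD-1ko. Its CD8 values were 376 and 307, 424 and 454, and 93.6 and 65.6 CPM. Its fall from STAT3ko to STAT3ko PD-1ko passed the test in both subsets (adjusted p = 0.00724 in CD4 and 0.00206 in CD8, edgeR).

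The libraries matched their labelled subset. Cd4 was at 1242 to 1887 CPM in the CD4 libraries and at 0.356 to 2.73 in the CD8 libraries, and Cd8a at 589 to 1339 CPM in the CD8 libraries and at no more than 5.64 in the CD4 libraries. The markers of most other cells were low. The 12 hepatocyte markers summed to 1.55 to 6.25 CPM, the 7 neutrophil markers to at most 1.35, and the 5 erythroid markers to at most 0.563, with 4 of those 5 at 0 in every library. The 12 macrophage and Kupffer cell markers summed to 7.86 to 39.7 CPM, of which Cd68 was the most abundant, whereas the Kupffer cell marker Clec4f did not exceed 1.65 and Csf1r did not exceed 1.31 CPM. Without Cd68 this list summed to 7.36 to 11.1 CPM in replicate 2 of WT and STAT3ko in both subsets. In all other libraries that sum was 0.777 to 1.95 CPM. The 11 dendritic cell markers summed to 32.0 to 396 CPM, almost all from Itgax and Cd74, while Siglech was at 0 in all libraries and Flt3, Clec9a and Xcr1 did not exceed 0.133 CPM. The 6 liver endothelial markers summed to 110 to 198 CPM, almost all from Pecam1, which T cells can express too, while Stab2 did not exceed 1.10, Cdh5 0.9 and Kdr 0.777 CPM. Pecam1 was not called in any genotype comparison. The 5 B cell markers found in the table summed to 1.63 to 14.7 CPM, almost all from Cd79b, with Ms4a1 at 0 in all libraries. Cd79b was at 14.5 and 10.6 CPM in WT CD8, 12.5 and 13.7 in STAT3ko, and 5.92 and 5.10 in STAT3ko PD-1ko, lower there than in WT (-1.18 ± 0.22, adjusted p = 0.0149, edgeR) and than in STAT3ko (-1.23 ± 0.22, adjusted p = 0.0143). Cd79b thus fell with the members in STAT3ko PD-1ko CD8 T cells, while its WT and STAT3ko libraries overlapped. Its part in the result of the members was not tested.

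**Figure D1:**
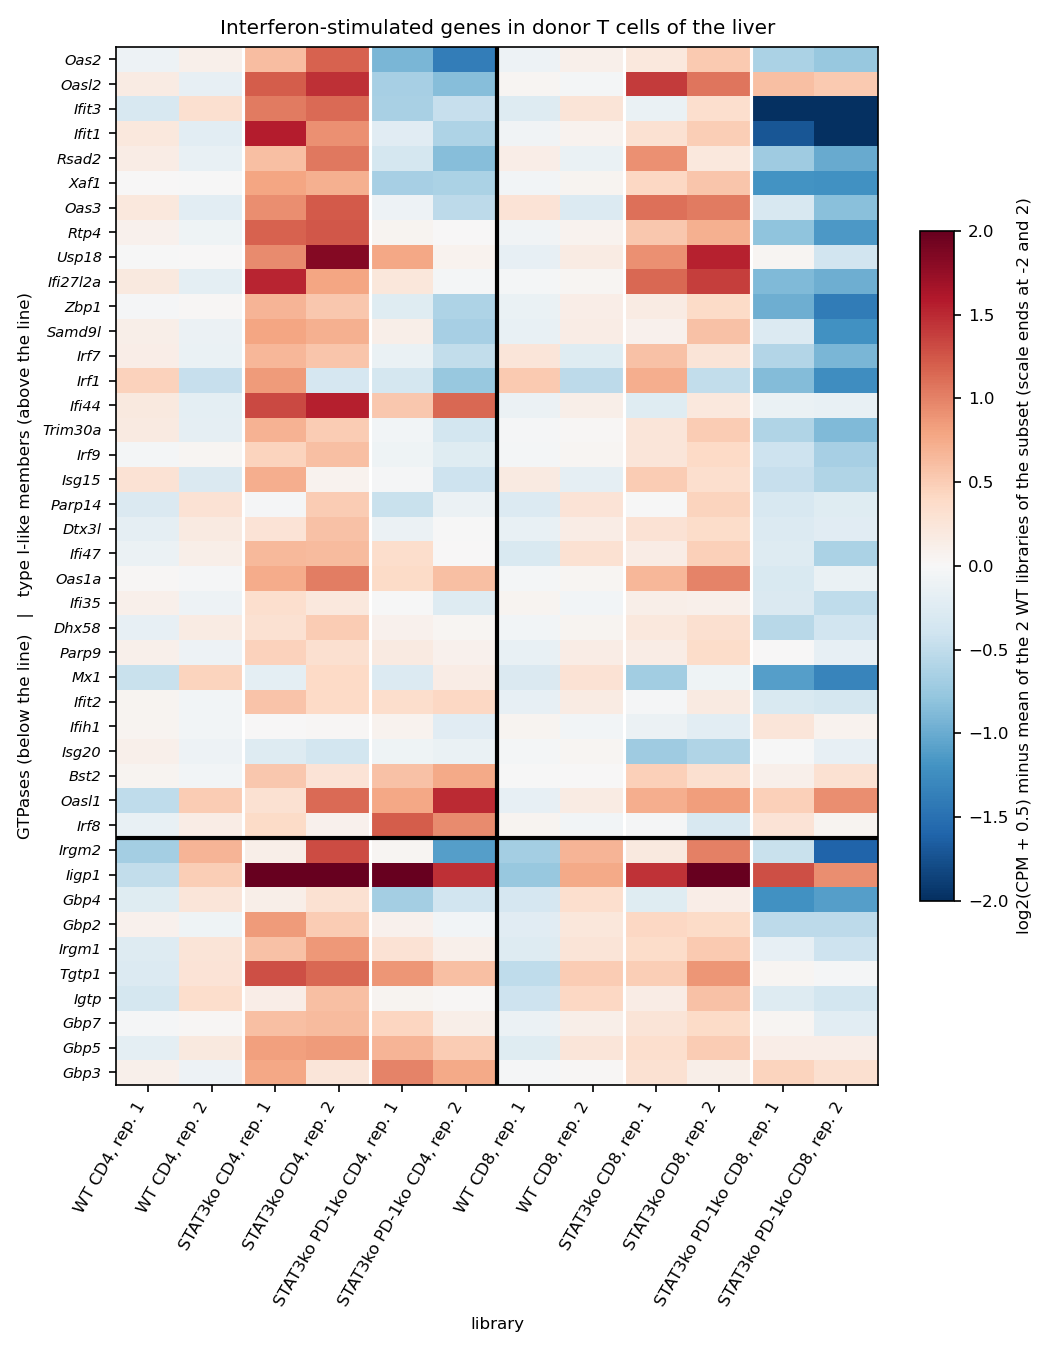
Level of the 42 genes in each of the 12 libraries as log2(CPM + 0.5) minus the mean of the 2 WT libraries of the same subset (color, cut at -2 and 2), with type I-like genes above the line and GTPases below it. Most rows were higher in STAT3ko than in WT, and most were lower in STAT3ko PD-1ko than in STAT3ko, in both subsets.

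In CD4 T cells, 41 of the 42 genes had a higher fitted level in STAT3ko than in WT, where 51.7% of all genes tested did, with a median log2 fold change of 0.63 beside 0.01 over all 11959 genes tested. Rtp4 and Iigp1 passed an adjusted p of 0.05, that is 2 of 42, both higher, where 0.334% of all genes tested were called and 0.151% were called higher. DESeq2 called 12 members, all higher, but the shares over all genes given here are from edgeR and do not apply to that count. In edgeR the count was 0 without either STAT3ko PD-1ko library, which enters only through the spread, and 1 without WT replicate 1, WT replicate 2 or STAT3ko replicate 1. At an unadjusted p under 0.05, 29 genes were higher and 0 lower, against 5.28% and 5.25% of all genes. The libraries did not overlap for 31 genes higher in STAT3ko and for Isg20, which was lower, against 18.8% and 19.3% of all genes. Rtp4, a chaperone of G protein-coupled receptors with antiviral activity, was at 17.4 and 15.3 CPM in WT and at 37.4 and 39.1 in STAT3ko (log2 fold change 1.23 ± 0.16, adjusted p = 0.0413, edgeR). Iigp1, an immunity-related GTPase that attacks parasite vacuoles, was at 4.23 and 8.76 CPM in WT and at 49.3 and 63.0 in STAT3ko (3.11 ± 0.41, adjusted p = 0.0413, edgeR). It had the largest fold change of the 42 genes in this comparison.

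The same comparison in CD8 T cells gave a higher level in STAT3ko for 36 of 41 genes, where 48.8% of all genes were higher, with a median log2 fold change of 0.38, against 0.20 when WT replicate 1 was left out and 0.51 when WT replicate 2 was. Ifi27l2a, a small interferon-induced membrane protein, was the 1 gene called, where 0.0583% of all 12002 genes tested were called and 0.0167% were called higher. DESeq2 called 5 members, 4 higher and 1 lower, and edgeR called none after any 1 of the 6 libraries was left out. The shares above are from edgeR and do not apply to the DESeq2 count. Ifi27l2a was at 45.2 and 48.2 CPM in WT and at 104 and 122 in STAT3ko (1.27 ± 0.13, adjusted p = 0.0454, edgeR). At an unadjusted p under 0.05, 13 genes were higher and 1 lower, against 6.01% and 4.95% of all genes. The libraries did not overlap for 26 genes higher in STAT3ko and for 2 lower, against 22.5% and 21.1%. Isg20, an RNA exonuclease, was the gene with an unadjusted p under 0.05 that was lower, at 18.3 and 19.3 CPM in WT and 11.3 and 12.3 in STAT3ko (-0.68 ± 0.16, adjusted p = 0.263, edgeR).

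Between STAT3ko and STAT3ko PD-1ko the genes moved the other way. In CD4 T cells, 15 of 42 were called lower in STAT3ko PD-1ko at an adjusted p of 0.05 and 1, Irf8, was called higher. Of all genes tested 11.1% were called, 5.03% lower and 6.05% higher. Among CD8 T cells, 21 of 41 were called lower and 1, Isg20, higher, where 16.8% of all genes were called, 8.05% lower and 8.76% higher. Their median log2 fold change was -0.66 in CD4 and -0.87 in CD8. The STAT3ko PD-1ko libraries lay wholly below the STAT3ko libraries for 34 of 42 genes in CD4 and 36 of 41 in CD8, against 30.8% and 31.5% of all genes. Limma on log2(RPKM + 1) with no filter called 2 members in each subset, all lower. The edgeR fit was repeated with 1 library left out at a time, including each of the 2 STAT3ko PD-1ko libraries. In CD4, no member was called without either of them, and 12 to 17 were called without 1 of the other 4. In CD8, no member was called without STAT3ko PD-1ko replicate 2, 11 without STAT3ko PD-1ko replicate 1, 12 without STAT3ko replicate 2, and 18 to 26 without 1 of the other 3. The median stayed between -0.66 and -0.55 in CD4 and between -0.99 and -0.74 in CD8 when 1 library was left out. These comparisons share their STAT3ko libraries with those above, so a gene with high STAT3ko values moved up in the first and down in the second.

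The 15 genes that fell in CD4 and the 21 that fell in CD8 have 13 in common, which is 86.7% of the CD4 list and 61.9% of the CD8 list. Of all genes that fell, 426 fell in both subsets, which is 70.9% of those in CD4 and 44.1% of those in CD8. The 13 members in common are Ifit1, Ifit3, Oas2, Oas3, Irf7, Irf9, Rsad2, Rtp4, Ifi27l2a, Xaf1, Zbp1, Trim30a and Gbp2. CD4 and CD8 cells with the same replicate number came from the same livers, so the lists do not come from separate animals.

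**Figure D2:**
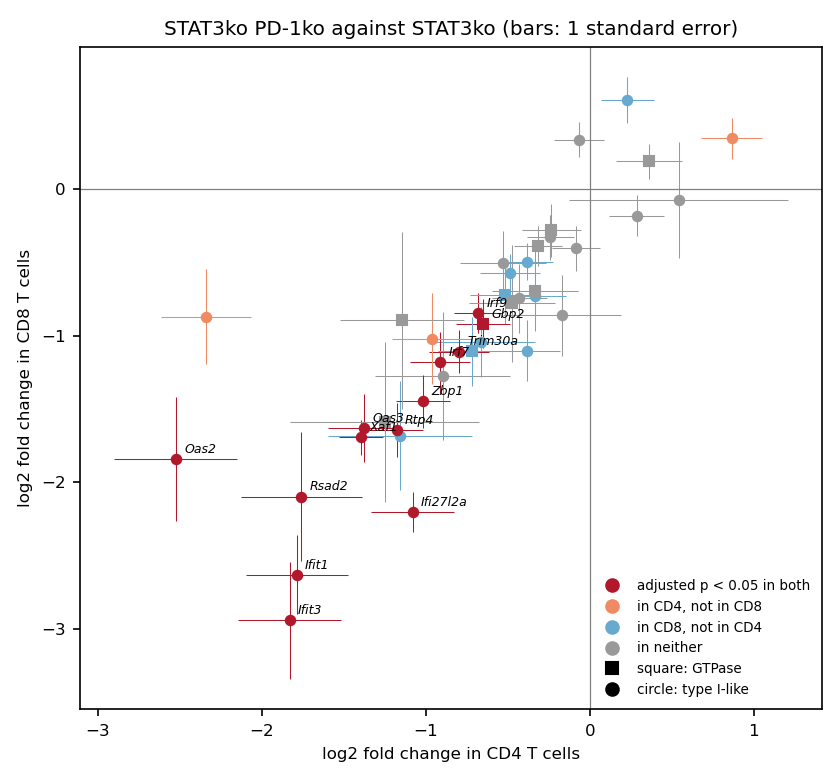
Log2 fold change of STAT3ko PD-1ko against STAT3ko in CD4 (horizontal) and CD8 T cells (vertical) for the 41 genes tested in both, with 1 standard error. Names mark the 13 genes with an adjusted p under 0.05 in both subsets, which all lie at the lower left, from Irf9 and Gbp2 to Ifit3 and Oas2.

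The IFIT proteins bind foreign RNA. Ifit1 was at 6.87 and 5.04 CPM in WT CD4, 18.6 and 11.5 in STAT3ko, and 4.93 and 3.65 in STAT3ko PD-1ko. In CD8 it was at 6.94 and 7.79, 9.15 and 10.6, and 1.90 and 1.27. The STAT3ko libraries were highest and the STAT3ko PD-1ko libraries lowest in both subsets, and the log2 fold change between them was -1.79 ± 0.31 in CD4 (adjusted p = 0.0174, edgeR) and -2.63 ± 0.27 in CD8 (adjusted p = 0.0036). Ifit3 was at 2.59 and 4.28 CPM in WT CD4, 7.39 and 7.96 in STAT3ko, and 1.95 and 2.30 in STAT3ko PD-1ko. The CD8 libraries held 7.21 and 10.5, 7.90 and 11.1, and 0.796 and 1.63 CPM, so WT and STAT3ko overlapped while STAT3ko PD-1ko was apart. Ifit3 had the largest fall of all members in CD8 (-2.94 ± 0.40, adjusted p = 0.00766, edgeR), and reads shared with its near copy Ifit3b may be split between them. Ifit2 passed no genotype test and stayed between 38.4 and 62.8 CPM in all 12 libraries.

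The 2'-5'-oligoadenylate synthetases make the second messenger that activates RNase L. In CD4 T cells 3 of the 5 family members, Oas2, Oas3 and Oasl2, fell from STAT3ko to STAT3ko PD-1ko, beside 5.03% of all genes. Oas2 was at 2.46 and 2.88 CPM in WT CD4, 4.33 and 6.62 in STAT3ko, and 1.17 and 0.715 in STAT3ko PD-1ko, the largest fall in CD4 (-2.53 ± 0.38, adjusted p = 0.0118, edgeR). The 3 genotypes did not overlap. In CD8 it was at 0.801 and 0.999, 1.12 and 1.51, and 0.398 and 0.327 CPM (-1.84 ± 0.42, adjusted p = 0.0289, edgeR). Oas3 was far more abundant, at 78.7 and 58.7 CPM in WT CD4, 130 and 159 in STAT3ko, and 63.2 and 47.2 in STAT3ko PD-1ko. Its CD8 values were 48.3 and 32.8, 85.9 and 82.1, and 31.9 and 22 CPM, and it fell between the knockouts by 1.38 ± 0.22 on the log2 scale in CD4 (adjusted p = 0.0133, edgeR) and by 1.63 ± 0.23 in CD8 (adjusted p = 0.00817). Oasl2, a ubiquitin-like relative, was at 4.0 and 3.05 CPM in WT CD4, 8.76 and 10.4 in STAT3ko, and 2.03 and 1.71 in STAT3ko PD-1ko (-2.34 ± 0.27, adjusted p = 0.00724, edgeR). Oasl2 in CD8 was at 0.712 and 0.639, 2.59 and 1.96, and 1.28 and 1.18 CPM, and the difference between the knockouts did not pass (-0.87 ± 0.32, adjusted p = 0.106, edgeR). Oas1a fell in CD8 (-1.10 ± 0.21, adjusted p = 0.0172, edgeR) and not by this test in CD4, and Oasl1, at no more than 2.22 CPM, passed no genotype test.

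Among the interferon regulatory factors, Irf7, the amplifier of type I interferon production, and Irf9, a DNA-binding factor of the type I interferon response, fell between the knockouts in both subsets. Irf7 was at 38.0 and 31.3 CPM in WT CD4, 55.1 and 51.1 in STAT3ko, and 31.5 and 24.3 in STAT3ko PD-1ko, and in CD8 at 49.6 and 35.4, 63.3 and 50.2, and 27.7 and 22. The knockout libraries did not overlap in either subset (-0.91 ± 0.18 in CD4, adjusted p = 0.0259, and -1.18 ± 0.21 in CD8, adjusted p = 0.0143, edgeR). Irf8, which T cells also use outside interferon signaling, went against the group. It was at 56.5 and 69.6 CPM in WT CD4, 81.7 and 66.2 in STAT3ko, and 145 and 121 in STAT3ko PD-1ko, above all other CD4 libraries (1.10 ± 0.19 against WT, adjusted p = 0.0117, and 0.87 ± 0.18 against STAT3ko, adjusted p = 0.0299, edgeR). Irf8 in CD8 was at 93.9 to 142 CPM in all 6 libraries with no call. Irf1, an early target of interferon-gamma, was not called, and its CD4 values followed the replicate number, with 547, 717 and 309 CPM in the CD4 libraries numbered 1 and 287, 312 and 235 in those numbered 2.

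Of the other effectors, Xaf1, a proapoptotic protein, had the closest replicates. It was at 120 and 120 CPM in WT CD4, 208 and 197 in STAT3ko, and 75.3 and 76.7 in STAT3ko PD-1ko, and in CD8 at 116 and 125, 160 and 177, and 52.2 and 51.5. The 3 genotypes were apart in both subsets. It fell from STAT3ko to STAT3ko PD-1ko by 1.40 ± 0.14 on the log2 scale in CD4 (adjusted p = 0.0044, edgeR) and by 1.69 ± 0.12 in CD8 (adjusted p = 0.00158), and was also below WT in both (adjusted p = 0.0241 and 0.00312). Ifi27l2a was at 115 and 87.8 CPM in WT CD4, 288 and 175 in STAT3ko, and 118 and 98.0 in STAT3ko PD-1ko, so that only STAT3ko stood apart. The CD8 libraries of STAT3ko PD-1ko held 25.2 and 23.6 CPM, beside the values given above (-2.20 ± 0.14 against STAT3ko, adjusted p = 0.00128, edgeR). Rtp4 showed the same order, at 17.1 and 16.4 CPM in STAT3ko PD-1ko CD4, and at 17.3 and 19.3, 26.9 and 30.4, and 10.3 and 7.96 CPM across the CD8 genotypes. Rsad2, or viperin, which makes a chain-terminating nucleotide, was scarce. It was at 2.23 and 1.74 CPM in WT CD4, 3.25 and 4.62 in STAT3ko, and 1.43 and 0.874 in STAT3ko PD-1ko (-1.76 ± 0.37 between the knockouts, adjusted p = 0.0288, edgeR). In CD8 it was at 1.60 and 1.24, 3.11 and 1.72, and 0.663 and 0.449 CPM (-2.10 ± 0.44, adjusted p = 0.0233, edgeR).

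Zbp1, a sensor of Z-form nucleic acid, and Trim30a completed the shared list, with log2 fold changes between the knockouts of -1.02 ± 0.17 and -0.80 ± 0.18 in CD4 and -1.45 ± 0.18 and -1.11 ± 0.15 in CD8. Samd9l fell in CD4 (-0.96 ± 0.24, adjusted p = 0.0464, edgeR). Isg15, the ubiquitin-like modifier, and Usp18, the protease that removes it and also blocks IFNAR2 signaling, fell in CD8 (-1.04 ± 0.24 and -1.68 ± 0.37, adjusted p = 0.0286 and 0.0266, edgeR), as did the sensor Dhx58, Ifi35 and Dtx3l. Dhx58 lies 182.5 kb and Ifi35 508.9 kb from Stat3 on chromosome 11, so sequence carried along with the Stat3 allele and the deletion cannot be told apart for these 2, and both are shared by STAT3ko and STAT3ko PD-1ko. The other 7 members on chromosome 11 lie at least 28.6 Mb from Stat3. Mx1, whose protein is defective in C57BL/6 mice, was below WT in STAT3ko PD-1ko CD8 T cells, at 14.5 and 12.4 CPM against 25.8 and 39.1 (-1.26 ± 0.28, adjusted p = 0.0232, edgeR). Bst2, or tetherin, rose against WT in STAT3ko PD-1ko CD4 T cells, from 22.6 and 20.9 to 32.9 and 36.9 CPM (0.71 ± 0.17, adjusted p = 0.0369, edgeR).

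**Figure D3:**
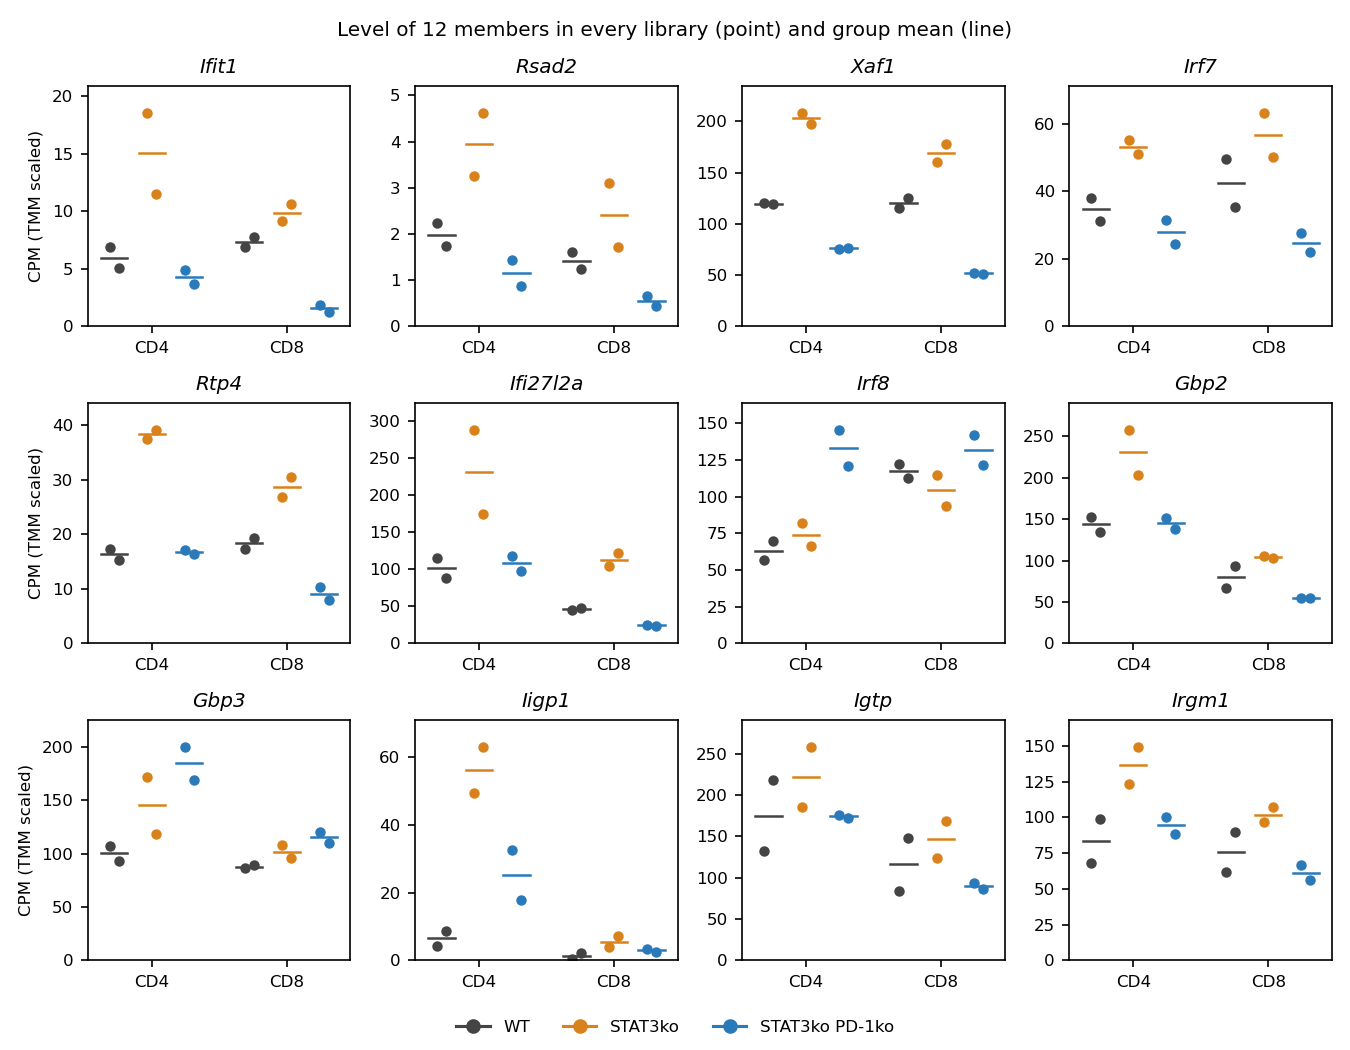
CPM of 12 of the genes in every library (points) with the mean of the 2 libraries of a group (line), for WT, STAT3ko and STAT3ko PD-1ko in CD4 (left of each panel) and CD8 T cells (right). Each vertical axis starts at 0, and Ifit1, Rsad2, Xaf1, Irf7 and Rtp4 show STAT3ko as the highest group mean of each subset, while Irf8 and Gbp3 show STAT3ko PD-1ko.

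The guanylate-binding proteins (GBP) and immunity-related GTPases (IRG) coat and break pathogen vacuoles, and members of each family share sequence, so their counts may be split among copies. Between the knockouts, 1 of 10 GTPases fell in CD4 (Gbp2), beside 5.03% of all genes, and 3 fell in CD8 (Gbp2, Gbp4 and Irgm1), beside 8.05%, and none rose. Gbp2 was at 152 and 135 CPM in WT CD4, 258 and 203 in STAT3ko, and 152 and 138 in STAT3ko PD-1ko, so WT and STAT3ko PD-1ko coincided (-0.65 ± 0.16 between the knockouts, adjusted p = 0.0456, edgeR). Its CD8 values were 67.3 and 93.2, 106 and 103, and 55.2 and 54.7 CPM (-0.92 ± 0.17, adjusted p = 0.0154, edgeR). Gbp4 was at 179 and 286 CPM in WT CD8, 192 and 248 in STAT3ko, and 97.9 and 105 in STAT3ko PD-1ko, which lay below both other groups (-1.11 ± 0.23 against STAT3ko, adjusted p = 0.0239, edgeR). Irgm1, a regulator of the other IRG proteins, was at 61.9 and 89.5, 96.5 and 107, and 66.5 and 56.0 CPM in the CD8 genotypes (-0.72 ± 0.19 between the knockouts, adjusted p = 0.0449, edgeR).

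Gbp3 and Iigp1 were the GTPases called higher than WT in STAT3ko PD-1ko CD4 T cells, where 7.21% of all genes were called higher. Of the 10 GTPases, 8 had a fitted level above WT. Within replicate 1 alone 8 of 10 were above WT (median log2 difference 0.65), and within replicate 2 alone 6 of 10 (median 0.07). Of all genes, 49% and 49.1% were above WT in these pairs of libraries. Gbp3 was at 107 and 93.4 CPM in WT, 172 and 119 in STAT3ko, and 200 and 169 in STAT3ko PD-1ko, where the knockouts overlapped (0.90 ± 0.20 against WT, adjusted p = 0.0288, edgeR). Iigp1 was at 32.5 and 17.8 CPM in STAT3ko PD-1ko, between the WT and the STAT3ko libraries (1.96 ± 0.40 against WT, adjusted p = 0.0217, edgeR). Iigp1 in CD8 was scarce, at 0.445 and 2.20, 3.84 and 7.24, and 3.40 and 2.53 CPM, with no call. Gbp5 and Gbp7, Igtp, Irgm2 and Tgtp1 passed no genotype test. Gbp5 was at 30.7 and 40.4 CPM in WT CD4, 62.8 and 64.3 in STAT3ko, and 56.5 and 50.2 in STAT3ko PD-1ko, and Tgtp1 at 3.68 and 5.59, 11.8 and 10.7, and 8.79 and 7.19. Both knockouts lay above WT for these 2 genes in CD4 without passing the test. Irgm2 had replicates far apart, at 27.7 and 72.1 CPM in WT CD4, 48.7 and 111 in STAT3ko, and 46.2 and 20.5 in STAT3ko PD-1ko. In CD8 it was at 20.9 and 54.6, 38.7 and 68.7, and 24.8 and 10.8 CPM, where the knockouts did not overlap (-1.59 ± 0.55, adjusted p = 0.0862, edgeR).

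Promoter sequence is shown for 2 type I-like genes and 2 GTPases to let the letters before genes of each class be compared. They are those that the naming rule picked in the most comparisons among the members with a window used here, with ties broken by symbol, so that Iigp1, picked more often than Gbp5, is not shown. Gbp5 was not called in any genotype comparison. The 250 bases before the RefSeq start (GRCm38.p6, plus strand for all 4) lie at chr19:34640639-34640888 for Ifit1, chr11:72301379-72301628 for Xaf1, chr3:142620413-142620662 for Gbp2 and chr3:142496684-142496933 for Gbp5. Capitals mark matches to GAAANNGAAA (an ISRE core, either strand) or TTCNNNGAA (a GAS core, which reads the same on both strands).
Ifit1: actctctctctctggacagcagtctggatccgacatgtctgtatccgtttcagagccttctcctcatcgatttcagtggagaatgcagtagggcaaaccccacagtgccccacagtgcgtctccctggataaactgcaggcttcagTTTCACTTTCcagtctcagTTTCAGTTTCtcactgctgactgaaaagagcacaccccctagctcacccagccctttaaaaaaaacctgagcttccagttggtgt
Xaf1: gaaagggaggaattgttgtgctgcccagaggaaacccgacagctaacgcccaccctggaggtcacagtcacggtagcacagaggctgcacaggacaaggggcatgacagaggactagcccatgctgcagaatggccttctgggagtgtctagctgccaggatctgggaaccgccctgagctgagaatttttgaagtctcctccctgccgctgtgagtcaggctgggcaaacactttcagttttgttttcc
Gbp2: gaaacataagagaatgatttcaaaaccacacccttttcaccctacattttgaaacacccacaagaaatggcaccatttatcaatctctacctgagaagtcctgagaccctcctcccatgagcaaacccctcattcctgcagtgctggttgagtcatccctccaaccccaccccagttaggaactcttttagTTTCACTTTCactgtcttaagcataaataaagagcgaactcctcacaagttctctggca
Gbp5: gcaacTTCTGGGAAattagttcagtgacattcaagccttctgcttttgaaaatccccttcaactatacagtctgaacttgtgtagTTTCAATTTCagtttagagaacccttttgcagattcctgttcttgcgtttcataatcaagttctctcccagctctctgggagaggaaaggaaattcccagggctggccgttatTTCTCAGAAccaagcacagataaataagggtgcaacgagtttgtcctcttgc
Ifit1 held 2 ISRE matches, Gbp2 1, Gbp5 1 together with 2 GAS matches, and Xaf1 none of either in this window. RefSeq windows were found for 31 of the 42 genes. Of 32851 windows in the table, 2.98% held the ISRE core and 7.02% the GAS core. Of the type I-like genes, 8 of 30 windows (23 genes) held the ISRE core and 6 the GAS core. Of the GTPases, 8 of 9 windows (8 genes) held the ISRE core and 5 the GAS core. A match is a description of the letters and not evidence of binding.

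The STAT3ko PD-1ko libraries were also compared with WT in each subset. In CD4 T cells 4 members were called higher (Irf8, Bst2, Iigp1 and Gbp3) and 2 lower (Oas2 and Xaf1), where 12.9% of all genes tested were called, 7.21% higher and 5.65% lower, and the median log2 fold change was -0.05. That median ran from -0.05 to 0.04 when 1 library was left out, so its sign was not stable. In CD8 T cells none was called higher and 11 were called lower, where 17.2% of all genes were called, 9.01% higher and 8.21% lower, and the median was -0.46, or -0.24 without WT replicate 2 and -0.54 without STAT3ko PD-1ko replicate 1. The 11 were Ifit1, Ifit3, Mx1, Irf7, Irf9, Rtp4, Ifi27l2a, Xaf1, Zbp1, Trim30a and Gbp4. The CD4 count was 0 without WT replicate 1 or either STAT3ko PD-1ko library and 2 without WT replicate 2, and the CD8 count was 1 without STAT3ko PD-1ko replicate 2 and 7 without STAT3ko PD-1ko replicate 1. At an unadjusted p under 0.05, 3 members were higher and 19 lower in CD8, against 17.9% and 16.1% of all genes, and 9 higher and 5 lower in CD4, against 15.6% and 13.2%. Whether the genotype effect differed between CD4 and CD8 was asked with an interaction term in a fit of all 12 libraries. No member passed in edgeR at an adjusted p of 0.05, where 0.00811% of 12334 genes were called, although 14 members had a lower and 1 a higher change in CD8 at an unadjusted p under 0.05, against 2.17% and 2.26% of all genes. When the recipient pool that gave both CD4 and CD8 cells entered as a block, 3 members passed, each lower in CD8, namely Ifit3 (-2.19 ± 0.32, adjusted p = 0.0269), Irf8 (-0.91 ± 0.15, adjusted p = 0.0391) and Rtp4 (-1.05 ± 0.18, adjusted p = 0.0494, edgeR). DESeq2 called Ifit1, Ifit3 and Rtp4. The share of 0.00811% is from edgeR without the block and does not apply to the calls with the block or by DESeq2. For STAT3ko against WT, and for the knockouts against each other, no member passed the interaction test in edgeR (0% of all genes were called in each), with 3 members lower at an unadjusted p under 0.05 in the former (0.819% of all genes) and 3 lower and 1 higher in the latter (2.22% and 1.37%). DESeq2 and the pool block called 0 members in these 2 interactions.

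Among WT T cells the members were not uniformly higher in either subset. Of 42 genes, 3 were called higher in CD8 than in CD4 T cells (Ifit3, Irf8 and Mx1) and 7 were lower (Oasl2, Iigp1, Oas2, Ifi27l2a, Ifih1, Gbp2 and Isg20), where 10.5% of all genes were called, 4.91% higher and 5.59% lower. The count was 2 without WT CD8 replicate 1, 4 without WT CD4 replicate 1 and 5 without WT CD8 replicate 2, and with the pool block 5 were higher and 11 lower. The shares above are from the fit without the pool block and do not apply to the counts with it. Without the block, Oasl2 (-2.38 ± 0.28, adjusted p = 0.000594, edgeR) and Iigp1 (-2.27 ± 0.61, adjusted p = 0.0415) had the largest differences. In STAT3ko 0 were higher and 10 lower (9.62% of all genes called, 4.81% higher and 4.82% lower), and in STAT3ko PD-1ko 0 were higher and 12 lower (4.14% called, 1.65% higher and 2.5% lower).

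**Figure D4:**
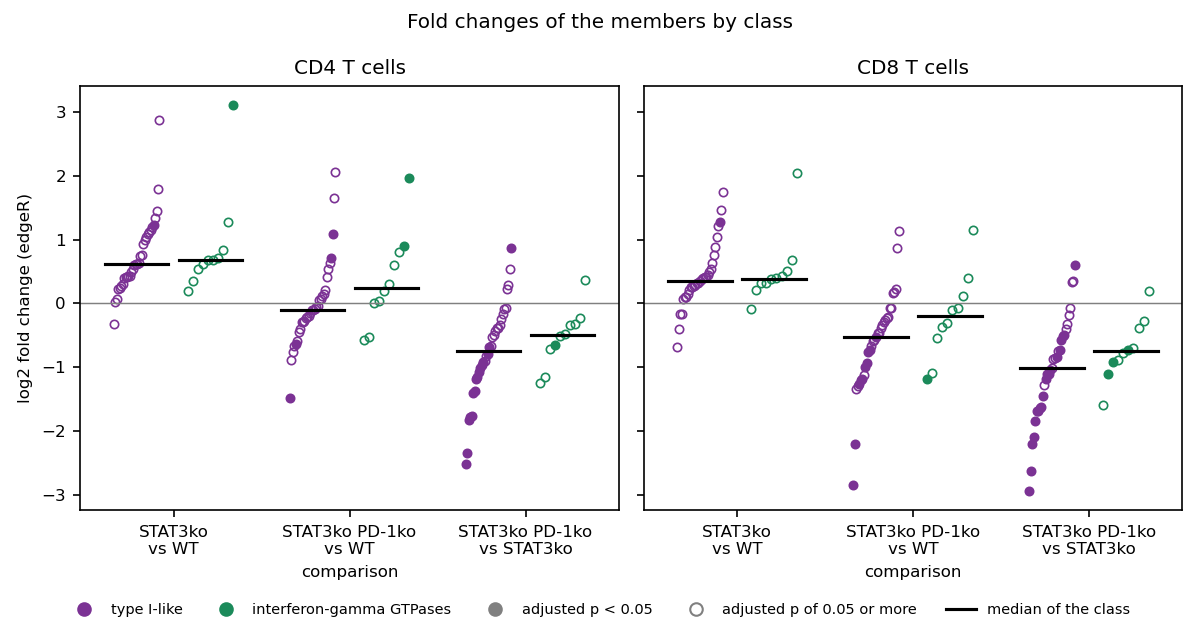
Log2 fold change of each member in the 3 genotype comparisons of CD4 (left) and CD8 T cells (right), for type I-like genes (purple) and interferon-gamma GTPases (green). Filled points have an adjusted p under 0.05 (edgeR) and black lines are class medians, which rise above 0 for STAT3ko against WT and lie between -0.50 and -1.02 for the knockouts against each other.

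The classes moved in the same direction where STAT3ko was compared with WT or with STAT3ko PD-1ko. The median log2 fold change of STAT3ko against WT was 0.62 for type I-like genes and 0.68 for GTPases in CD4, and 0.35 and 0.39 in CD8, a difference between classes of -0.07 and -0.04. The SD of this difference between replicates was 0.322 and 0.25, so the classes were not separated. Between the knockouts the medians were -0.74 and -0.50 in CD4 and -1.02 and -0.75 in CD8. The differences of -0.24 and -0.27 exceeded their SD of 0.0985 and 0.0471. Each SD rests on 2 libraries per group and leaves out the spread between genes of a class, so it cannot show that the classes were separated. Against WT, STAT3ko PD-1ko gave -0.10 and 0.25 in CD4, and -0.53 and -0.20 in CD8, with differences of -0.35 and -0.33 beside an SD of 0.317 and 0.249. Type I-like genes were the lower class in STAT3ko PD-1ko in both subsets, except that the CD8 difference from WT was 0.040 without WT replicate 1. Between the knockouts in CD8 the class difference was -0.050 without STAT3ko replicate 1, -0.42 without STAT3ko replicate 2 and -0.15 without STAT3ko PD-1ko replicate 2. No p is given for these class differences, since the members were chosen with results known.

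Some members differed by replicate number, as did 14.1% of all genes tested, so this was not particular to the members. Each pool of recipients enters this comparison with its CD4 and its CD8 library as if they were separate, so 12 libraries stand for 6 pools and the p-values are too small. Over the 12 libraries 5 members were called higher and 3 lower in replicate 2 (edgeR), with 2 called in the CD4 and 0 in the CD8 libraries alone, where 14.1% of all genes were called, 7.03% higher and 7.02% lower, and the median log2 difference was 0.00 in size. Irf1 (-0.86 ± 0.12, adjusted p = 0.00166, edgeR), Irf7 and Isg15 were lower, and Ifit3, Mx1, Oasl1, Parp14 and Gbp4 were higher. Within replicate 1 alone, 40 of 42 members were higher in STAT3ko than in WT CD4 T cells, and within replicate 2 alone 39 were. For STAT3ko PD-1ko against STAT3ko, 36 of 42 were lower in CD4 within either number and 37 of 42 in CD8. Of all 12334 genes, 47.6% to 52.4% were higher or lower in any of these pairs of libraries. For STAT3ko PD-1ko against WT the numbers differed. In CD8, 17 members were higher and 25 lower within replicate 1 (median -0.13), where 8 of 10 GTPases were higher, and 7 were higher and 35 lower within replicate 2 (median -0.68), where 8 of 10 GTPases were lower. In CD4, 22 were higher and 20 lower within replicate 1 and 16 higher and 26 lower within replicate 2.

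Of the interferon genes themselves, only Ifng was abundant enough to be tested among 7 listed. It was at 483 and 237 CPM in WT CD4, 450 and 126 in STAT3ko, and 386 and 153 in STAT3ko PD-1ko, with the higher value in replicate 1 of each group. In CD8 it was at 357 and 258, 330 and 192, and 332 and 118 CPM. No genotype comparison was called, whereas replicate 2 was below replicate 1 (-1.15 ± 0.15, adjusted p = 0.0013, edgeR, with each pool counted in both subsets). Of 9 receptor and kinase genes, 7 were tested. None was called for STAT3ko against WT. In STAT3ko PD-1ko against WT, Ifngr1 and Jak1 fell in CD4 (-0.73 ± 0.15 and -0.57 ± 0.12), and Ifnar2, Ifngr1 and Jak1 fell in CD8 (-0.91 ± 0.14, -0.50 ± 0.11 and -0.71 ± 0.10). Of all genes, 5.65% were called lower in CD4 and 8.21% in CD8. Between the knockouts in CD4, 1 of the 7 was called lower, beside 5.03% of all genes. All 7 had a lower fitted level there (median log2 fold change -0.36). Ifngr1 was at 1300.1 and 1042 CPM in WT CD4, 940.3 and 857 in STAT3ko, and 649 and 737 in STAT3ko PD-1ko, so the 3 genotypes did not overlap. Ifnar1, Jak2 and Tyk2 were not called in any of the 6 genotype comparisons, and Ifngr2 did not exceed 0.636 CPM.

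Of the transcription factors outside the members, Stat2, Irf2, Irf3, Irf4 and Irf2bp1 were not called in any genotype comparison. Irf5 was higher in STAT3ko PD-1ko than in WT CD8 T cells, at 31.2 and 31.3 against 20.1 and 21.6 CPM (0.60 ± 0.14, adjusted p = 0.0261, edgeR). Irf2bp2, a corepressor that binds IRF2, fell in STAT3ko PD-1ko CD4 T cells to 65 and 76.6 CPM, from 202 and 151 in WT (-1.30 ± 0.23, adjusted p = 0.0141, edgeR) and from 161 and 109 in STAT3ko (-0.91 ± 0.23, adjusted p = 0.0458). Socs1, the feedback inhibitor of JAK kinases, fell in STAT3ko PD-1ko against WT, from 24.1 and 23.6 to 15.9 and 11.3 CPM in CD4 (adjusted p = 0.0478, edgeR) and from 17.9 and 15.9 to 11 and 8.69 in CD8 (adjusted p = 0.0295).

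A wider list of 78 other interferon-response genes was compared in the same fits. Between the knockouts 0 of 71 tested were called higher and 22 lower in CD4 (6.05% and 5.03% of all genes), and 1 of 70 was higher and 29 lower in CD8 (8.76% and 8.05%), with median log2 fold changes of -0.61 and -0.78. For STAT3ko PD-1ko against WT, 3 were higher and 11 lower in CD4 (7.21% and 5.65% of all genes), and 0 higher and 20 lower in CD8 (9.01% and 8.21%). For STAT3ko against WT, 2 were higher and 2 lower in CD4 (0.334% of all genes called) and edgeR called 0 in CD8 (0.0583%), where 14 were higher and 2 lower at an unadjusted p under 0.05 (6.01% and 4.95%), and the medians were 0.30 and 0.23. Ifi213, of the PYHIN family of DNA sensors, was at 28.1 and 32.8 CPM in WT CD4, 75.5 and 115 in STAT3ko, and 18.1 and 16.4 in STAT3ko PD-1ko, and in CD8 at 27.5 and 41.2, 53.6 and 91.0, and 8.49 and 6.16. It fell most of the list between the knockouts (-2.45 ± 0.24, adjusted p = 0.0044, in CD4 and -3.30 ± 0.33, adjusted p = 0.00358, in CD8, edgeR). Slfn5, of the Schlafen family, was at 92.1 and 95.6 CPM in WT CD4, 102 and 127 in STAT3ko, and 25.4 and 27.0 in STAT3ko PD-1ko (-2.11 ± 0.17 between the knockouts, adjusted p = 0.00332, edgeR). The antiviral membrane proteins Ifitm1 and Ifitm2 went against the other genes in STAT3ko CD4 T cells. Ifitm1 was at 358 and 221 CPM in WT and 59.7 and 52.6 in STAT3ko (-2.36 ± 0.27, adjusted p = 0.0266, edgeR), and Ifitm2 was at 265 and 212 and at 84.6 and 79.0 (-1.54 ± 0.16, adjusted p = 0.0237). Both remained below WT in STAT3ko PD-1ko CD4 T cells.

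Some markers moved with the genotype beside these genes. Itgax, which encodes CD11c and is also expressed by activated T cells, was at 70.5 and 62.2 CPM in WT CD4, 25.9 and 27.7 in STAT3ko, and 4.98 and 5.72 in STAT3ko PD-1ko, and in CD8 at 392 and 363, 220 and 243, and 27.8 and 20.2. Its order over the genotypes differed from that of the members, as WT and not STAT3ko was highest. The other dendritic cell markers together went the other way, from 15.1 and 20.8 CPM in WT CD4 to 23.6 and 29.1 in STAT3ko and 36.7 and 46.8 in STAT3ko PD-1ko, mostly through Cd74 (1.36 ± 0.22 against WT, adjusted p = 0.0099, edgeR), the invariant chain of MHC class II. In CD8 they summed to 4.0 and 7.71, 4.62 and 8.02, and 9.02 and 11.8 CPM. Cd68 fell between the knockouts in CD8 (-0.63 ± 0.13, adjusted p = 0.0232, edgeR), and so did Cd8a (-0.89 ± 0.12, adjusted p = 0.007) and Cd8b1 (-0.95 ± 0.11, adjusted p = 0.00454). Between the knockouts, 7 of 8 macrophage and Kupffer cell markers tested were lower in CD4 (median log2 fold change -1.85, 0 called). In CD8 all 8 were lower (median -1.87, 1 called). Cd68 itself was higher in CD4, at 5.93 and 6.94 CPM in STAT3ko and 8.57 and 10.3 in STAT3ko PD-1ko. Without Cd68, only replicate 2 of STAT3ko stood above the STAT3ko PD-1ko libraries by more than 1 CPM in either subset, as the sums above show. Of 9 T cell markers tested, 4 were called lower in STAT3ko PD-1ko than in STAT3ko CD8 T cells (median log2 fold change of the 9 -0.36). Against WT, 5 were called lower (median -0.46). Of all genes, 8.05% and 8.21% were called lower. Their summed level was 7548 and 7662 CPM in WT CD8, 6904 and 7468 in STAT3ko, and 5152 and 5249 in STAT3ko PD-1ko, with Thy1 the most abundant. In CD4, 1 of 9, Cd4, was called lower than in WT, where 5.65% of all genes were called lower. The part of these markers in the result was not tested. In bulk libraries, fewer cells expressing a gene and less RNA of it in each cell cannot be told apart.

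Between genes, levels were compared per length as RPKM, averaged over the 12 libraries. Ifi27l2a (119 RPKM) and Irf1 (115) were the most abundant members, followed by Ifi47 (91.9) and Igtp (77.2). Ifi44 (0.154), Oas2 (0.496), Oasl1 (0.505) and Rsad2 (0.510) were the least abundant. In all, 29 of the 42 genes were called in at least 1 of the 6 genotype comparisons, as were 27.3% of all 12270 genes tested in either subset. The 13 that were not called were Ifit2, Oasl1, Irf1, Ifi44, Ifi47, Ifih1, Parp9, Parp14, Irgm2, Igtp, Tgtp1, Gbp5 and Gbp7.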

How the data were processed

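RNA-Seq was measured in 12 libraries, 2 each of CD4 and CD8 T cells of 3 donor genotypes. The authors mapped reads to mm10 and deposited raw read counts per gene, with RPKM values that the authors computed from them (strand setting not given in the sources used here). The labels also hold growth text that belongs to another cell type, which was not used. Counts were tested with edgeR 4.0.16 (TMM, filterByExpr, quasi-likelihood test) over the 6 libraries of a subset, leaving 3 residual degrees of freedom, and over all 12 libraries for interactions, CD8 against CD4, and replicate number. Benjamini-Hochberg adjustment covered all genes tested. CD4 and CD8 libraries of 1 genotype and number came from the same livers (correlation of their deviations from the group means 0.539 to 0.580), which the pool block takes up. The fit was also run on simulated counts, whose outcome is not reported here. CPM used TMM factors of all 12 libraries. RPKM served to compare genes with each other and, as log2(RPKM + 1), in limma 3.58.1. Other alternatives were DESeq2 1.42.0, RLE factors, other filters, blocks and leaving out each library.

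The members, their classes and the other gene lists were chosen with earlier results of these data known. Genes were named by rule: for each genotype comparison and class, up to 6 members past an adjusted p of 0.05 by size of fold change, filled up to 4 by unadjusted p, with the targeted and pathway genes, up to 4 other interferon-response genes per comparison and the leading marker of each cell type. Members named beyond this, and the 12 drawn by library, were chosen after their values were seen. Promoters came from RefSeq. Results on 1 pathway gene and 1 marker gene are not reported here.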

Additional observations from a re-analysis of the deposited data

How the results depend on the processing

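Of 66 results of members, Stat3 and Pdcd1 that were recomputed under the alternatives wherever a filter kept the gene, none reversed its direction; other genes given with values were not recomputed. The counts of members past an adjusted p of 0.05 moved more. For STAT3ko against WT in CD4 T cells (2 members) DESeq2 called 12, keeping all genes with at least 1 count 9, and fitting all 12 libraries 6, while limma on log2(RPKM + 1) or log2(RPKM + 0.1), and the 4 libraries compared on their own, called 0. In CD8 (1 member) DESeq2 called 5 and the 1-count filter 2, while a filter of 10 counts in every library, all 12 libraries, limma on RPKM with either pseudocount or with no filter, and the 4 libraries alone gave 0. Limma on log2(RPKM + 1) with no filter called 1 member in each subset for STAT3ko PD-1ko against WT and 2 in each against STAT3ko. The interaction of subset with STAT3ko PD-1ko against WT gave 0 in edgeR, 3 in DESeq2 and 3 with the pool block, and CD8 against CD4 in WT gave 16 with the pool block beside 10. Replicate 2 against replicate 1 gave 8 members, but 2 in CD4 and 0 in CD8 alone. The class difference between the knockouts in CD8 was -0.19 with 10 counts in every library. Shares over all genes are not given for these alternatives, so their counts were not read against such shares. Causes of these shifts were not tested.

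Replicate numbers were shared by the genotypes without a label that pairs them, although the sample numbers in the titles run on within each replicate number. Correlations of same-numbered deviations between genotypes ran from 0.068 to 0.593. WT with STAT3ko stood at 0.561 in CD4 and 0.593 in CD8, near the 0.539 to 0.580 of libraries from the same livers. Within a subset, STAT3ko PD-1ko stood at 0.268 with WT and 0.184 with STAT3ko in CD4, and at 0.138 and 0.068 in CD8. As no label says what a number marks and the correlations were uneven, the replicate block stayed an alternative. With the replicate block 14 members were called in CD4 for STAT3ko against WT, 10 in CD4 and 17 in CD8 for STAT3ko PD-1ko against WT, and 1 in the interaction.

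With 1 library left out, the lone library left in its group is assumed to vary like the others. The CD4 counts then ran from 0 to 2 for STAT3ko against WT, 0 to 6 for STAT3ko PD-1ko against WT and 0 to 17 between the knockouts, and the CD8 counts from 0 to 0, 1 to 12 and 0 to 26. CD8 against CD4 in WT ran from 2 to 10, and the class difference in CD8 from -0.57 to 0.040 for STAT3ko PD-1ko against WT and from -0.42 to -0.050 between the knockouts. The 38 called results of named genes kept their call in 139 of 228 such refits and lost it in 89, and the 28 that were not called gained one in 11 of 168.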
